A study of Homo sapiens with 4 samples.

Results

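Kinesins are motor proteins that walk along microtubules, and 39 of the 35820 genes in the deposited count table carried a kinesin symbol: 35 motor genes named KIF with a number, and the light chain genes KLC1 to KLC4. The members were chosen by symbol alone, but the family itself was selected on fold changes of KO over WT in these same libraries, so every knockout value below is a description of the members and is not offered as evidence about the family. RNA was measured in 2 libraries of the TOP3B knockout clone E2-4 (KO) and 2 libraries of the parental wild-type line (WT). The line is HCT116, a human colon carcinoma line, and the clone was made by CRISPR with a guide against exon 2 of TOP3B, a topoisomerase that works on DNA and on RNA. Both groups were grown in the same medium with 10% serum. There was 1 clone, so clone and genotype cannot be told apart, and nothing in the labels says whether libraries of a group were separate cultures, so p-values measure the spread between these libraries.

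Kinesins fall into broad classes. One class acts in mitosis and cytokinesis: its members slide spindle microtubules, depolymerise their ends, move chromosomes or build the midzone where the cell divides. The other class carries membrane organelles, vesicles and protein complexes through the cytoplasm and was studied first in neurons, where transport runs along the axon; its kinesin-1 motor pairs heavy chains (KIF5A, KIF5B, KIF5C) with light chains (KLC1 to KLC4) that bind cargo. A further set serves cilia and signalling. In most human cells the mitotic kinesins are made in G2 and M phase from promoters that repress transcription earlier in the cycle.

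Levels are given as CPM (counts per 1000000 counts of a library), scaled between libraries with the TMM factors of edgeR; CPM is not divided by gene length, so levels are compared between libraries for 1 gene and not between genes. KO libraries held 10450048 and 16143634 estimated counts and WT libraries 15141919 and 11750516, at which 3 counts, the limit that a count of 0 allows, equal 0.176 to 0.271 CPM in a single library (counting error only). WT replicate 1 stood apart in its scaling, with a TMM factor of 0.858 against 1.04 to 1.06 elsewhere. TOP3B itself was at 43.9 and 54.6 CPM in KO and 57.0 and 66.4 CPM in WT (log2 fold change -0.32, SE 0.17; edgeR adjusted p = 0.522), so a count over the whole gene does not check the edit. Of 8 colon epithelial markers, EPCAM, CDH1, CLDN4, KRT8, KRT18 and KRT19 were counted in every library, CDX2 had 56 and 0 counts in KO and 46 and 44 in WT, and VIL1 had at most 1 count in any library. Folds of those tested ran from -0.88 (CLDN4) to 0.41 (KRT18) on the log2 scale, and DESeq2 called KRT19 lower in KO (-0.80, SE 0.18 by edgeR; DESeq2 adjusted p = 0.00290). The 8 epithelial markers summed to 1539 and 1468 CPM in KO and 2612 and 2151 CPM in WT, and their part in the kinesin results was not tested. All 4 leukocyte markers in the table were at 0.

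None of the mitotic kinesins passed a test between the KO clone and WT. 11 of the 14 genes listed as mitotic had a row, all were tested, and their log2 fold changes ran from -0.47 to 0.85 with a median of 0.06, against -0.01 over all 12269 genes tested. The edgeR quasi-likelihood test called 0 of the 11 at a Benjamini-Hochberg adjusted p under 0.05, where it called 0.00815% of all genes; DESeq2, the alternative tool, also called 0, where it called 1.45% of all genes. At an unadjusted p under 0.05 edgeR counted 0 of them, beside 11.2% of all genes. With so few genes these counts are near the background. Summed over the 11 genes, the level was 1752 and 1904 CPM in KO and 1807 and 1630.4 CPM in WT, so the groups overlapped. KIF11, KIF2B and KIF4B were not analysed here.

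**Figure D1:**
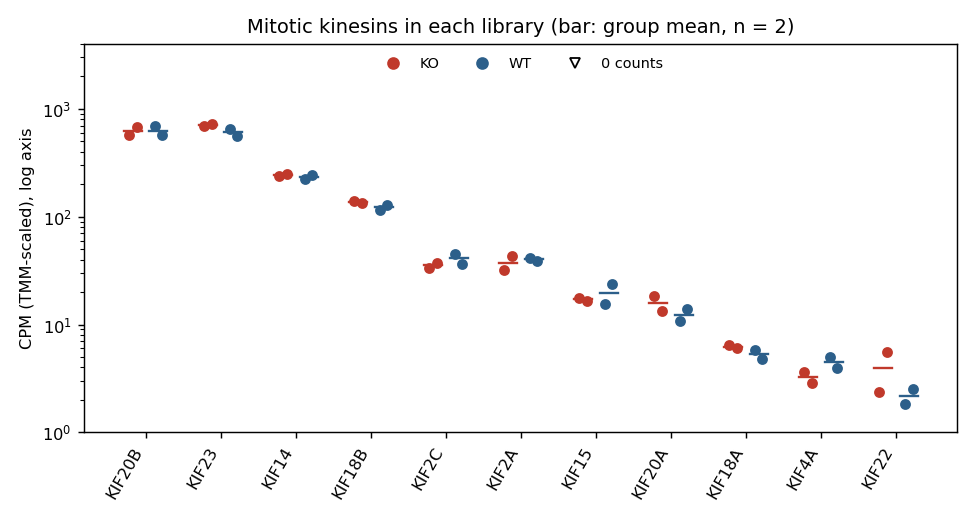
Level of each of 11 mitotic kinesins in CPM on a log axis; points are single libraries (KO red, WT blue) and bars are group means of 2 libraries. KO and WT means lie close together for the genes at the left, and the widest gap between replicates is that of KIF22 in KO, with 2.35 and 5.51 CPM.

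Among motors of the midzone and cytokinesis, KIF23 (chromosome 15), the motor of the centralspindlin complex, had 695 and 724 CPM in KO and 655 and 566 CPM in WT. Both KO libraries lay above both WT libraries, by a log2 fold change of 0.22 (SE 0.13; edgeR adjusted p = 0.555). KIF20A, which brings the chromosomal passenger complex to the midzone, had 18.2 and 13.5 CPM in KO and 10.8 and 13.9 CPM in WT, and its groups overlapped (0.36, SE 0.26; edgeR adjusted p = 0.609). KIF4A, a chromokinesin that sets midzone length, had 3.61 and 2.87 CPM in KO and 5.00 and 3.93 CPM in WT, with both KO libraries below (-0.47, SE 0.35; edgeR adjusted p = 0.617). KIF14, a partner of the midzone protein PRC1 and of citron kinase, had 237 and 248 CPM in KO and 222 and 242 CPM in WT, a log2 fold change of 0.06. KIF20B, a motor needed to finish cytokinesis, had 567 and 673 CPM in KO and 687 and 569.6 CPM in WT, a log2 fold change of -0.02. In KIF20B the replicates of each group lay further apart than the group means.

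Among motors of the spindle itself, KIF18B (chromosome 17), which shortens astral microtubules, had 139 and 134 CPM in KO and 116 and 128 CPM in WT (log2 fold change 0.16, SE 0.12; edgeR adjusted p = 0.616), and its groups did not overlap. KIF22, a chromokinesin that pushes chromosome arms outward, had 2.35 and 5.51 CPM in KO and 1.85 and 2.54 CPM in WT; its fold of 0.85 (SE 0.53) rests on KO replicate 2. KIF18A, which aligns chromosomes, had 6.41 and 6.04 CPM in KO and 5.85 and 4.74 CPM in WT, without overlap (0.23, SE 0.29). KIF15, which helps keep the spindle bipolar, had 17.8 and 16.7 CPM in KO, inside the WT range of 15.5 to 24.0 CPM (-0.20, SE 0.26). Of the microtubule depolymerases, KIF2C had 33.6 and 37.5 CPM in KO and 45.4 and 36.7 CPM in WT (-0.21, SE 0.17), and KIF2A had 31.9 and 42.9 CPM in KO and 41.6 and 39.2 CPM in WT (-0.11, SE 0.19). For the 4 mitotic members of highest count the 95% intervals of the log2 fold change were narrow: -0.43 to 0.39 for KIF20B, -0.12 to 0.56 for KIF23, -0.23 to 0.36 for KIF14 and -0.14 to 0.46 for KIF18B. For KIF22 the interval ran from -0.52 to 2.22, so a large change is not excluded, and its KO replicates lay 2.35-fold apart. KO and WT libraries did not overlap in 4 of the 11 genes, beside 46.9% of all genes tested; 3 were higher in KO, beside 23.5%, and 1 was lower, beside 23.4%.

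Promoter strings were counted in the members. In human cells many G2 and M phase genes carry a cell cycle genes homology region (CHR), the site of the MuvB complexes, together with CCAAT boxes bound by NF-Y. RefSeq promoter windows (GRCh38.p14, 250 bases before to 50 after the annotated start) were matched by symbol for 31 of 39 members and searched on both strands for TTTGAA or its variant TTCGAA as a CHR, and for CCAAT. A member was counted if any of its windows held a match, and the 31 members had 40 windows. Shares over all windows count single windows, so the units differ and members with several windows had more room for a match. A CHR match stood in the windows of 8 of 11 mitotic kinesins with a window, and in those of 1 of 11 cargo kinesins, beside 16.4% of all 35116 windows. A CCAAT match stood in 8 of the 11 mitotic and 3 of the 11 cargo kinesins, beside 34.6% of all windows. Both kinds stood together in KIF4A, KIF14, KIF18A, KIF18B, KIF20B, KIF22 and KIF23 of the mitotic set and in KIF5B of the cargo set. They also stood together in KIF24, 1 of 7 cilium, signalling and other kinesins with a window. Over all windows the share with both was 6.38%. A match is a string of letters and not a site shown to bind a factor.

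Windows are shown for 3 mitotic members of high count, picked after the counts were seen, and for KIF16B. KIF16B is the cargo member that DESeq2 called higher in KO, and it is shown to set a mitotic beside a cargo promoter. CHR and CCAAT matches on either strand are in capitals, and no base belonged to more than 1 match.
KIF23, chr15:69414099-69414398, plus strand: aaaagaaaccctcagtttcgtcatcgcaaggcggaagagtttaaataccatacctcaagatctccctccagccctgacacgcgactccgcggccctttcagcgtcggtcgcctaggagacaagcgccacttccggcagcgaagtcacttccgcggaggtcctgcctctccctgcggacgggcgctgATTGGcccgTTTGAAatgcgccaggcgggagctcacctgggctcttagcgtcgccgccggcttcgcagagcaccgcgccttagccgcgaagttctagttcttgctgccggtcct
KIF18B, chr17:44947724-44948023, minus strand: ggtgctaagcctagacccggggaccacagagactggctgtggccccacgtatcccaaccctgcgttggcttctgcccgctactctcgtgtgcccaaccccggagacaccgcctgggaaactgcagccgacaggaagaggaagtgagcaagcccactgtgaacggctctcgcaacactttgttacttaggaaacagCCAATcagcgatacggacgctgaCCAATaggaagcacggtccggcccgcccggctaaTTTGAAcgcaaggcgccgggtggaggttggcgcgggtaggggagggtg
KIF20B, chr10:89701340-89701639, plus strand: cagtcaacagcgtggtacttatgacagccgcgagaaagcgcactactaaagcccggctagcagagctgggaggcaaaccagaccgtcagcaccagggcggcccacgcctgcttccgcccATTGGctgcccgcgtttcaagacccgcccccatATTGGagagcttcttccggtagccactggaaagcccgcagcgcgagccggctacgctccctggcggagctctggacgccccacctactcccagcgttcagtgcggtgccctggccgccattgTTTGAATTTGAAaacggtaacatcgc
KIF16B, chr20:16573399-16573698, minus strand: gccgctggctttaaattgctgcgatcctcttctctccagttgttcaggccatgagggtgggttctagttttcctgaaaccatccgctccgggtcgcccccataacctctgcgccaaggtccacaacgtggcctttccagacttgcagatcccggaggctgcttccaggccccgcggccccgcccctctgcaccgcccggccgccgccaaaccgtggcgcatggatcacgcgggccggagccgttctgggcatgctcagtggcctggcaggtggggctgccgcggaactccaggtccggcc
KIF23 has a CHR 55 bases before its start with a CCAAT box just upstream, KIF18B has a pair of CCAAT boxes before a CHR at its start, and KIF20B has a tandem pair of CHRs 24 bases after its start. KIF16B holds none of these strings in this window.

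**Figure D2:**
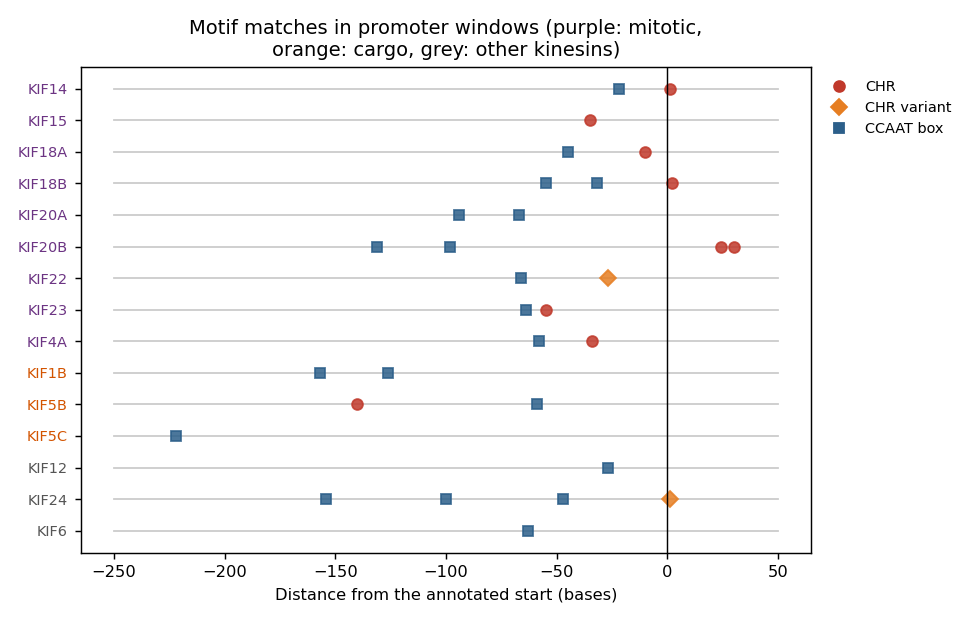
Position of CHR, CHR variant and CCAAT matches, in bases from the annotated start, in 1 promoter window of each kinesin gene that holds at least 1 match. 7 mitotic genes (purple names) have both a CCAAT box and a CHR or its variant, while the cargo genes shown (orange names) have CCAAT boxes alone except KIF5B. Of the other kinesins shown (grey names), KIF24 has both CCAAT boxes and a CHR variant.

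Cargo kinesins included the members with by far the widest changes, in opposite directions. 14 of the 15 listed genes had a row and 11 were tested; KIF3B was not analysed here. KIF16B, a kinesin-3 motor with a lipid-binding domain that moves early endosomes, had 54 and 47 counts in the KO libraries and 0 in both WT libraries. KIF5A, the kinesin-1 heavy chain best known from neurons, had 0 counts in both KO libraries and 37 and 48 counts in the WT libraries. These were the 2 members that DESeq2 called, 1 higher and 1 lower in KO, of 32 members to which it gave an adjusted p. Over all genes it called 0.504% higher and 0.946% lower.

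In CPM, KIF16B (chromosome 20) stood at 4.87 and 2.76 in KO and 0 and 0 in WT. Against a floor of 3 counts over the WT group this is at least 32.1-fold higher in KO (DESeq2 adjusted p = 0.000875; edgeR adjusted p = 0.246). This bound and that of KIF5A cover counting error only: the counts are estimates, and KIF24 and CDX2 had 0 counts in 1 KO library beside 47 and 56 in the other. The call was lost by DESeq2 without KO replicate 1 (adjusted p = 0.257) and without WT replicate 1 (0.108), and edgeR passed it without WT replicate 2 (adjusted p = 0.0259). Its nearest protein-coding neighbour on one side, SNRPB2, had a log2 fold change of -0.21, and the one on the other side, MACROD2, had 14 and 24 counts in KO and 21 and 14 counts in WT (-0.05, SE 0.46).

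KIF5A (chromosome 12) stood at 0 and 0 CPM in KO and 2.85 and 3.93 CPM in WT, at least 31.8-fold lower in KO against the same floor over the KO group (DESeq2 adjusted p = 0.00109; edgeR adjusted p = 0.246). DESeq2 without any 1 library gave adjusted p between 0.0527 and 0.197. In edgeR it passed without WT replicate 2 (adjusted p = 0.0447). DCTN2, a dynactin subunit whose gene is the next protein-coding gene beside KIF5A, was lower as well: it had 23.6 and 30.4 CPM in KO and 74.7 and 46.7 CPM in WT (-1.17 on the log2 scale, SE 0.28; edgeR adjusted p = 0.327; DESeq2 adjusted p = 0.0251). DESeq2 kept that call without WT replicate 2 and lost it without each other library (adjusted p = 0.283 to 0.970). PIP4K2C, on the other side, had 2.80 and 3.52 CPM in KO and 0.693 and 2.45 CPM in WT (edgeR adjusted p = 0.573). In bulk RNA, fewer cells that make a transcript and less of it per cell cannot be told apart.

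Both genes passed edgeR's filter on low counts only through the group in which they were counted. A gene at 0 in 1 group was tested by edgeR only where the other group held enough counts, so a wide fold followed for any such gene. A count of 0 in both libraries of 1 group was found in 47 of all genes tested (0.383%), 27 of them at 0 in KO and 20 at 0 in WT. Of the neuronal markers, 6 of 10 (STMN2, GAP43, NEFL, NEFM, DCX and ELAVL3) had 0 counts in every library. The 10 together summed to 6.95 and 3.99 CPM in KO and 2.15 and 4.01 CPM in WT, and their part in the KIF5A and KIF16B results was not tested.

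**Figure D3:**
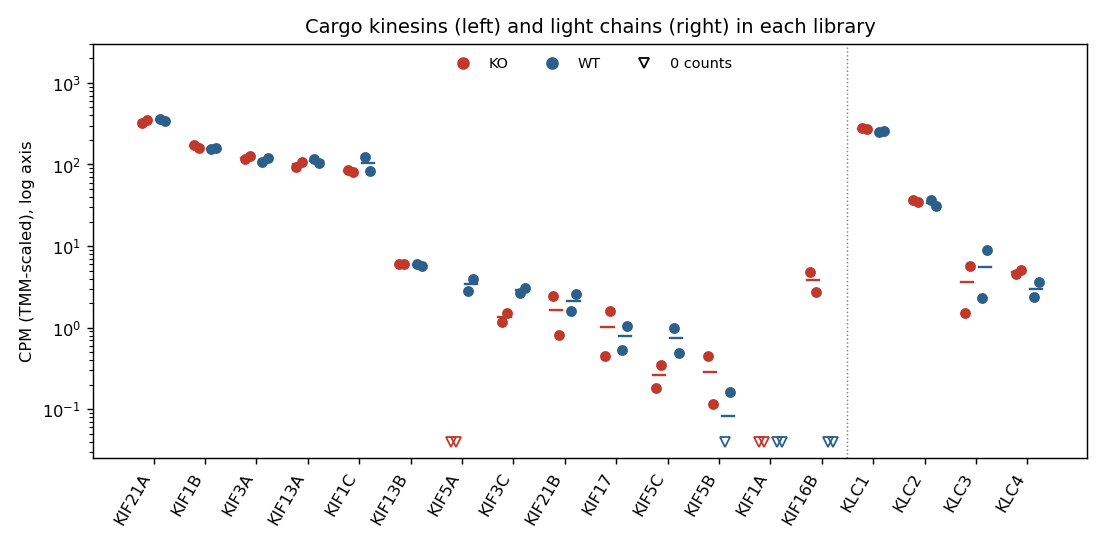
Level of the 14 cargo kinesins and 4 light chains in CPM on a log axis; points are single libraries (KO red, WT blue), bars are group means of 2 libraries and open triangles at the bottom mark libraries with 0 counts. KIF5A has triangles in KO only and KIF16B in WT only, and the highly counted genes at the left have overlapping or adjacent points.

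None of the remaining 9 tested cargo kinesins passed in edgeR or DESeq2. Their log2 fold changes ran from -1.07 to 0.39, and the median of all 11 was -0.05, whether KIF5A and KIF16B stood at their fitted values or at their bounds. KIF3C, a neuronal partner of KIF3A in kinesin-2, had 1.17 and 1.52 CPM in KO and 2.69 and 3.03 CPM in WT, without overlap; its log2 fold change of -1.07 (SE 0.41) had an edgeR adjusted p of 0.445 and a DESeq2 adjusted p of 0.847. With KIF16B and KIF5A it made up the 3 of 31 tested members with an unadjusted edgeR p under 0.05, 1 higher beside 4.97% of all genes and 2 lower beside 6.21%.

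KIF1C, which carries dense core vesicles, had 86.3 and 80.9 CPM in KO and 124 and 82.2 CPM in WT, so its log2 fold change of -0.30 (SE 0.22) rests on WT replicate 1. KIF13A, a motor of recycling endosomes, had 93.9 and 106 CPM in KO and 117 and 105 CPM in WT, with overlap (-0.15, SE 0.13; edgeR adjusted p = 0.664). The counts behind KIF21A, KIF1B and KIF3A were large enough for tight estimates. KIF21A, a kinesin-4 that slows microtubule growth, had 322 and 353 CPM in KO and 359 and 342 CPM in WT, a log2 fold change of -0.05 (95% interval -0.35 to 0.24). KIF1B, which carries mitochondria and synaptic vesicle precursors, had 175 and 158 CPM in KO and 153 and 158 CPM in WT (0.10, -0.20 to 0.39), and its higher WT library reached the lower KO library to within the rounding of these values. KIF3A, the kinesin-2 motor of the cilium, had 116 and 127 CPM in KO and 107 and 121 CPM in WT, with overlap (0.09, -0.24 to 0.41). KIF13B, KIF17 and KIF21B had 0.03, 0.39 and -0.40. KIF17 had 0.451 and 1.58 CPM in KO and 0.539 and 1.06 CPM in WT. KIF21B had 2.44 and 0.821 CPM in KO and 1.62 and 2.62 CPM in WT. Their KO replicates lay 3.51-fold and 2.97-fold apart. Without KO replicate 2 the log2 fold change of KIF17 was -0.81 and that of KIF21B 0.20, so neither direction held.

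KIF5C did not pass edgeR's filter on low counts (DESeq2 adjusted p = 0.955); it had 2 and 6 counts in KO and 13 and 6 in WT. KIF5B, the kinesin-1 heavy chain that nearly all cells use, had only 5 and 2 counts in KO and 0 and 2 in WT. Such counts for a common gene can be failed estimates, so the kinesin-1 heavy chains as a set cannot be summed from this table. KIF1A, the axonal motor of synaptic vesicle precursors, was listed at 0 in every library.

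Set side by side, mitotic and cargo kinesins had medians of 0.06 and -0.05 and median sizes of the log2 fold change, regardless of sign, of 0.21 and 0.30, against 0.27 over all genes tested. Groups did not overlap in 4 of 11 genes of either set, beside 46.9% of all genes, a count near the background for so few genes. 10 of 11 mitotic and 8 of 11 cargo genes lay within 0.5 of 0 on the log2 scale, beside 73.0% of all genes tested; the cargo genes outside were KIF16B, KIF5A and KIF3C. Restricted to members with a mean of at least 100 counts over the libraries, which both KIF16B and KIF5A miss, 8 mitotic genes ran from -0.21 to 0.36 and 5 cargo genes from -0.30 to 0.10. The widest folds of the cargo set thus stood in 3 genes with few counts.

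**Figure D4:**
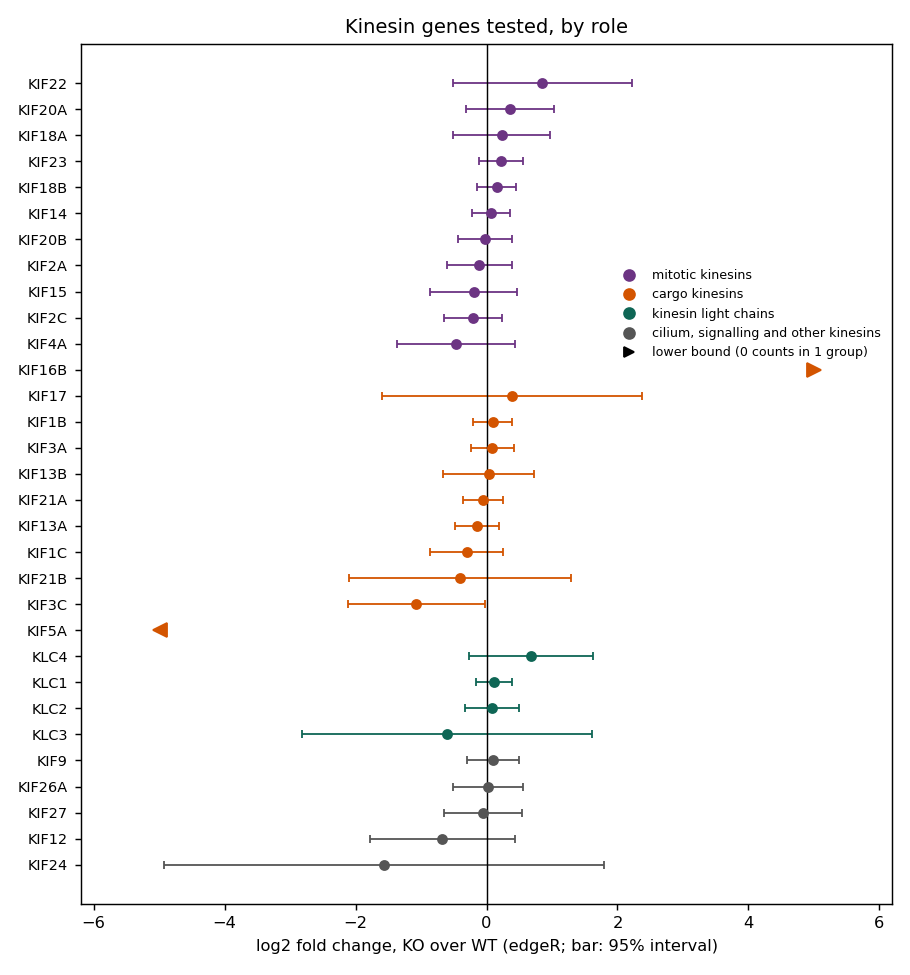
Log2 fold change, KO over WT, of the 31 tested kinesin genes by role, with 95% intervals from the edgeR fit; arrowheads mark the lower bounds of KIF16B (5.00) and KIF5A (-4.99), which had 0 counts in 1 group. Apart from these genes, KIF3C is the 1 gene whose interval, -2.11 to -0.03, leaves out 0.

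The kinesin light chains, which link kinesin-1 to its cargo, were all tested. Of the 4, edgeR and DESeq2 called 0, beside 0.00815% and 1.45% of all genes, and 0 had an unadjusted edgeR p under 0.05, beside 11.2%; with so few genes these counts are near the background. KLC1 (chromosome 14) had 278 and 271 CPM in KO and 250.1 and 257 CPM in WT, without overlap (log2 fold change 0.11, SE 0.11; edgeR adjusted p = 0.682). KLC2 had 36.8 and 34.3 CPM in KO and 36.3 and 30.8 CPM in WT, a log2 fold change of 0.08. KLC4 had 4.51 and 5.04 CPM in KO and 2.39 and 3.60 CPM in WT, again without overlap (0.68, SE 0.37; edgeR adjusted p = 0.526). KLC3 varied more within groups than between them, with 1.53 and 5.69 CPM in KO and 2.31 and 8.83 CPM in WT. The spans of all 4 genes overlap another counted gene in RefSeq (XRCC3, PACS1, ERCC2 and MRPL2), so their counts can be uncertain, which was not tested.

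Of the 10 kinesins of cilia, signalling and other roles, 5 were tested by edgeR. Neither tool called any (0.00815% and 1.45% of all genes), and 0 of 5 had an unadjusted edgeR p under 0.05 (11.2% of all genes), again near the background. KIF24, which restrains cilium formation, had 0 and 47 counts in KO and 70 and 39 in WT. The KO libraries disagreed, its log2 fold change of -1.56 had an SE of 1.31, and its span overlaps UBAP1 and NUDT2. KIF12 had 1.53 and 1.11 CPM in KO and 2.08 and 2.13 CPM in WT (-0.67, SE 0.43; edgeR adjusted p = 0.567). KIF9, a motor of motile cilia, had 22.9 and 23.1 CPM in KO and 21.3 and 21.7 CPM in WT, a difference of 0.10. KIF27 and KIF26A stood at -0.05 and 0.02. KIF7, the ciliary regulator of Hedgehog signalling, and KIF25 were listed at 0 in every library; for KIF7, whose span overlaps TICRR, this can be a failed estimate. KIF6, KIF19 and KIF26B had at most 8 counts in any library.

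Kinesin genes with other kinds of symbol were set beside the members. Of 6 tested, DESeq2 called 1, beside 1.45% of all genes. This was KIFC3, a minus-end motor that works at cell junctions and the Golgi. It had 137 and 112 CPM in KO and 63.0 and 63.1 CPM in WT (0.98 on the log2 scale, SE 0.14; edgeR adjusted p = 0.246; DESeq2 adjusted p = 0.000312). That call was lost without KO replicate 1 (DESeq2 adjusted p = 0.746) and without KO replicate 2 (0.202). CENPE and KIFC1, the kinetochore and minus-end motors of the spindle, had 0.51 and 0.06.

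Of 20 spindle and cytokinesis genes that work with the mitotic motors, edgeR and DESeq2 called 0, beside 0.00815% and 1.45% of all genes. The median was -0.06. With so few genes these counts are near the background, as is the 1 gene with an unadjusted edgeR p under 0.05, beside 11.2%. That gene was ECT2, the RHOA exchange factor that centralspindlin recruits, with 647 and 707 CPM in KO and 536 and 494 CPM in WT (log2 fold change 0.39, SE 0.12; edgeR adjusted p = 0.392). RACGAP1, the partner of KIF23 in centralspindlin, had -0.11, and PRC1 had 0.09. Neither tool called any of 9 proliferation markers (0.00815% and 1.45% of all genes). Of these markers 0 had an unadjusted edgeR p under 0.05 (11.2% of all genes), again near the background. Of these 9, 6 had log2 fold changes below 0 and 3 above, with a median of -0.06. MKI67, 1 of those above, stood at 842 and 829 CPM in KO and 786 and 748 CPM in WT.

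Genes listed as G2 and M phase regulators, with CCNB1, CDK1 and CDC20 among them, had a median of 0.13 over 16 genes. DESeq2 called 1 of them, beside 1.45% of all genes. RBL2, the pocket protein p130 of the repressive DREAM complex, had 0.722 and 0.586 CPM in KO and 11.8 and 2.94 CPM in WT (-3.49 on the log2 scale, SE 0.80; DESeq2 adjusted p = 0.0110, edgeR adjusted p = 0.304). The WT libraries of RBL2 lay far apart, and DESeq2 lost the call without any library except WT replicate 2 (adjusted p of at least 0.117). FOXM1 had 0.15 and MYBL2 0.73, with edgeR adjusted p of 0.670 and 0.457. CDK1 and E2F4 had unadjusted edgeR p under 0.05 with log2 fold changes of 0.36 and 0.44 (edgeR adjusted p = 0.445 and 0.420).

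Among adaptors that tie cargo to kinesins, 1 was far lower in KO. MAPK8IP1, which encodes JIP1, a scaffold that binds kinesin light chains and JNK pathway kinases, had 2.62 and 2.76 CPM in KO and 22.5 and 23.6 CPM in WT. The groups were far apart and the replicates close (-3.09 on the log2 scale, SE 0.22; edgeR adjusted p = 0.0729; DESeq2 adjusted p = 5.85e-13), and DESeq2 still called it without any 1 library. It was the 1 gene DESeq2 called of 19 adaptors tested, beside 1.45% of all genes, and the adaptors had a median of 0.05. MADD, the adaptor of KIF1A and KIF1B, had 133 and 131 CPM in KO and 97.4 and 109 CPM in WT (0.36, SE 0.12; edgeR adjusted p = 0.410), and SYBU, which links KIF5B to mitochondria and vesicles, had 0.48 (SE 0.17; edgeR adjusted p = 0.421).

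**Figure D5:**
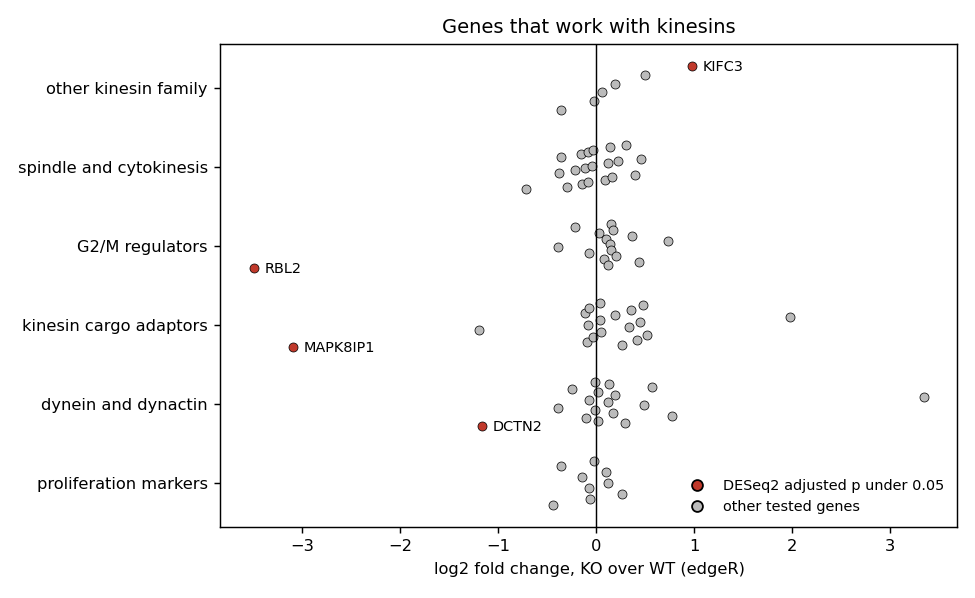
Log2 fold change, KO over WT, of tested genes in 6 lists of kinesin relatives and partners; each point is 1 gene, and red points with names have a DESeq2 adjusted p under 0.05. KIFC3 is higher in KO, and MAPK8IP1, RBL2 and DCTN2 are lower, while most points lie near 0.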

How the data were processed

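Per the submitters' processing notes, Salmon 1.10.1 and the build hg19 were used; the sources used here do not give the annotation, the summary to genes, any filter or the use of strand in counting. The authors deposited whole numbers per gene, treated here as rounded estimated counts, and a table of RPKM, not used for any value. Libraries were made from ribosomal RNA-depleted total RNA with a stranded kit, per the labels' protocols.

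Genes were tested with edgeR 4.0.16 (R 4.3.3, limma 3.58.1; filterByExpr, TMM factors, quasi-likelihood F-test on genotype alone, Benjamini-Hochberg adjustment over all 12269 genes, threshold 0.05). An SE is the log2 fold change divided by the root of F, and intervals are 95% from the fitted degrees of freedom. DESeq2 1.42.0 (Wald test) gave an adjusted p for 12899 genes. Alternatives were other scaling, no filter, a replicate block, leaving out each library and other list memberships. A fold against a group at 0 uses a floor of 3 counts over the group.

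The members and lists were chosen with earlier results of these data known, and the motifs and printed promoters after the counts were seen. Libraries' values are given for genes called by either tool and for up to 5 of smallest edgeR p in each role list; further members' values were added after they were seen, and listed partners are named where called or at an unadjusted p under 0.05, with some others chosen after their values were seen. All 39 members matched RefSeq by symbol, and 14 overlap another counted gene there, so their counts can be uncertain. Overlap was of whole gene spans, without regard to strand or exons, and its effect on the counts was not tested.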

Additional observations from a re-analysis of the deposited data

How the results depend on the processing

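Without any 1 library, edgeR called between 0 and 575 genes in place of 1 (575 without WT replicate 2), the mitotic median lay between 0.031 and 0.13 and the cargo median between -0.18 and -0.019. DESeq2 called 187 genes. Scaling by library size alone moved the median of all genes from -0.01 to 0.14, the mitotic median to 0.22 and the cargo median to 0.11, and called 42 genes; without a filter 34 were called. In both of these edgeR also called KIF16B (adjusted p = 0.0451 and 0.0493) and KIF5A (0.0451 and 0.0451). Adding the light chains moved the cargo median to 0.034. DESeq2 without any 1 library, an alternative chosen after seeing the data, called 0 or 1 of the members in place of 2: 0 without KO replicate 1 or WT replicate 1, and KIF16B alone otherwise. Shared replicate numbers did not pair the libraries (r = 0.06 for deviations of the same number); with a replicate block edgeR called 1 gene, counted 2 members at an unadjusted p under 0.05 in place of 3, and gave medians of 0.07 and -0.06. Of the 31 tested members 19 kept the sign of their fold under 9 alternatives (the other tool, other scaling, no filter, the block and each library left out) and 12 did not; the causes were not tested.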

Other observations

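Retrograde transport genes serve dynein and dynactin, which carry cargo the other way along microtubules. Over 18 tested genes their median log2 fold change was 0.07. DCTN2 was the 1 that DESeq2 called, beside 1.45% of all genes. BICD2, the adaptor that activates dynein for Golgi vesicles, had 134 and 139 CPM in KO and 93.7 and 101 CPM in WT, without overlap (0.49, SE 0.11; edgeR adjusted p = 0.307; DESeq2 adjusted p = 0.138). DYNC1H1, the dynein heavy chain of nearly all cells, had 9 and 30 counts in KO and 0 and 3 in WT (3.35, SE 1.12; edgeR adjusted p = 0.410), counts as low for a common gene as those of KIF5B. DCTN1, which anchors dynactin to dynein, had 512 and 497 CPM in KO and 534 and 485 CPM in WT and overlapping groups.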
